A study of Mus musculus with 10 samples.

Results

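Oligodendrocytes are the glia that wrap axons in myelin, and they arise throughout life from dividing precursor cells. The 10 genes described here mark the steps from the precursor to the newly formed oligodendrocyte, and they were picked by symbol from textbook knowledge of the lineage out of the 53379 genes counted in each library. They are 2 markers of precursors (Pdgfra and Cspg4), 3 markers of newly formed oligodendrocytes (Bcas1, Enpp6 and Gpr17) and 5 transcription factors of the lineage (Olig1, Olig2, Sox10, Myrf and Nkx2-2). A precursor carries the PDGF receptor alpha and the proteoglycan NG2 on its surface and loses both when it leaves the cell cycle. It then passes through a brief stage marked by Gpr17, Enpp6 and Bcas1, while Olig2, Sox10 and Nkx2-2 and then Myrf turn on the myelin genes. In the adult hippocampus precursors are spread evenly through the tissue, and mature oligodendrocytes are densest in the fiber tracts.

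The libraries came from hippocampal regions microdissected from 5 week old male mice, whose genotype the sources do not state for the sequencing, while wildtype C57BL/6 and FosCreER mice were used in the study as a whole. For the tagging, mice were given AAV9-c-Fos-tTA with AAV9-TRE-ChR2-EYFP, viruses in which the promoter of the activity gene c-Fos drives a transactivator that doxycycline blocks, so that EYFP marks cells active while the drug is withdrawn. Aversive mice were given 4 foot shocks, each 2 s long at 1.5 mA, and 2 libraries were made from them (replicates 1 and 3). The appetitive group (2 libraries) was exposed to a female for 1 h in a clean home cage, the neutral group (3 libraries) explored the same conditioning cage with no stimulus, and the mock group (3 libraries) stayed in the home cage. The labels give 8 pooled mice per condition, whereas the methods give fewer for mock, which they call an untagged control. EYFP-positive material was taken by FACS, from a cell suspension by the labels and the methods and as nuclei by the study's results. The study states that the sequencing was repeated and that batch effects were controlled for, but not whether the replicates of a group were separate pools of mice. If they were not, the p-values measure only the spread between these libraries, which may be technical. In such bulk samples, fewer cells of a type and less RNA per cell cannot be told apart.

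Total counts ranged from 16968588 to 67650693 per library. Levels are given as normalized CPM, in which counts are scaled to the library total corrected by its TMM factor, and 3 counts, taken as the floor, corresponded to 0.0346 to 0.235 CPM for counting error only. The neutral libraries were prepared with another kit and read on another sequencer than the other 7, and the labels give total RNA and reads of 100 bp for them against polyA RNA and 40 bp for the others, so the neutral experience and the preparation cannot be told apart. The replicates of a group differed widely, with a coefficient of variation of 122.1% over genes. The median log2 fold change of all genes tested ran from -1.45 to 0.08 over the 6 comparisons, from -1.17 to 0.06 with the size factors of DESeq2 and from -1.93 to 0.19 by library size alone, and the values of the 10 genes are to be read beside these shifts. The 15 genes of mature oligodendrocytes and myelin took 0.954% to 38.9% of the counts of a library, and none of them was at 0 in any library. The summed level of 12 neuronal genes was 91.8 to 134 CPM in neutral, 288 to 470 CPM in mock, 740.2 to 957 CPM in aversive and 196 to 1292 CPM in appetitive libraries, with 1 to 3 of them at 0 in each neutral library, 2 and 3 in the appetitive libraries, 1 in aversive replicate 1 and none in the others.

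The 2 precursor markers were lower in every aversive and appetitive library than in every mock and neutral library. Of the 19754 genes tested, 6.49% showed the same arrangement of these 4 and 6 libraries, and it held for both genes under each of 3 ways to scale the libraries. Because these are the members that separate the groups in the same way, the windows upstream of their RefSeq start sites are shown here (GRCm38.p6), at chr5:75152001-75152250 on the plus strand for Pdgfra (250 bases) and at chr9:56864854-56865032 on the plus strand for Cspg4 (179 of 250 bases, up to its GENCODE exon), with capitals marking matches to CANNTG (the E-box, bound by basic helix-loop-helix factors such as Olig2) and to ACAANG or CNTTGT (a SOX core), searched on both strands.
Pdgfra: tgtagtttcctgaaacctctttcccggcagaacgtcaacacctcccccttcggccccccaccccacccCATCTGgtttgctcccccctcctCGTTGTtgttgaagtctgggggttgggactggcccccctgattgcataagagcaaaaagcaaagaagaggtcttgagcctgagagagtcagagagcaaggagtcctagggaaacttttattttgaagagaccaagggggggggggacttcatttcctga
Cspg4: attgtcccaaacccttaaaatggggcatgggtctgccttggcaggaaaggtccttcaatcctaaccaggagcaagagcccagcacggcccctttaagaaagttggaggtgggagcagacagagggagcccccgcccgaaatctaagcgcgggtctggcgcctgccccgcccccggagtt
Pdgfra had 1 match to each motif and Cspg4 had none in its 250 bases. An E-box was found in 66.2% and a SOX core in 36.3% of the 32851 mouse promoters of this length.

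Pdgfra (ENSMUSG00000029231, chr5:75152292-75198215, GRCm38) encodes the receptor through which PDGF drives precursors to divide. Its level was 18.7, 10.1 and 8.53 CPM in mock replicates 1, 2 and 3 and 7.93, 2.07 and 6.27 CPM in the neutral replicates. In the aversive replicates 1 and 3 it was 0.15 and 0.0401 CPM, from 3 and 2 counts, and in the appetitive replicates 1 and 2 it was 0.0782 and 0 CPM, from 1 and 0 counts. Every library of the last 2 groups was thus at or under the floor, and the order of the groups was mock, neutral, aversive and appetitive, with only aversive and appetitive overlapping, and also mock and neutral when scaled by the size factors of DESeq2. Unstranded reads of overlapping genes (Gm42802, Gm42803 and Mir7025) could fall on 6.5% of its exon bases. Pooled over libraries, the rate of Pdgfra counts in mock was 153 times that in aversive (95% exact interval 65.5 to 473) and 350 times that in appetitive (62.7 to 13800), intervals that cover counting error only. The corresponding ratios for neutral were 71.8 (30.7 to 221) over aversive and 164 (29.3 to 6470) over appetitive. With the spread between libraries taken into account, none of the 4 differences passed an adjusted p of 0.05 in edgeR's quasi-likelihood test with Benjamini-Hochberg adjustment, with adjusted p = 0.0694 for appetitive against neutral, 0.0798 for appetitive against mock, 0.18 for aversive against neutral and 0.473 for aversive against mock. DESeq2's Wald test called all 4, with Benjamini-Hochberg adjusted p from 1.98e-06 to 0.000363.

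Cspg4 (ENSMUSG00000032911, chr9:56865033-56899870, GRCm38) encodes the NG2 proteoglycan, which precursors share with the pericytes of blood vessels. It stood at 7.29, 8.33 and 47.4 CPM in mock and at 11.6, 116 and 36.8 CPM in neutral libraries, against 0.1 and 3.53 CPM in aversive (2 and 176 counts) and 0.313 and 0.628 CPM in appetitive libraries (4 and 12 counts). Neutral replicate 2 was the highest and aversive replicate 1 the lowest, the mock and neutral ranges overlapped, and so did the aversive and appetitive ranges. The log2 difference was -6.84 ± 2.1 (SE) for appetitive against neutral, with adjusted p = 0.0693 in edgeR, and -4.9 ± 1.89 for aversive against neutral, with adjusted p = 0.211. Against mock it was -5.46 ± 1.96 for appetitive (adjusted p = 0.147) and -3.52 ± 1.75 for aversive (adjusted p = 0.508). DESeq2 called Cspg4 in 3 of these 4 comparisons, all but aversive against mock.

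Markers of vessel and meningeal cells, which share these genes, varied between the same libraries. The summed level of 10 mural genes (pericytes and smooth muscle) was 414 to 969 CPM in mock, 219.6 to 1101 CPM in aversive, 199 to 399 CPM in appetitive and 589.7 to 6137 CPM in neutral libraries, where replicate 2 was the highest for both the mural genes and Cspg4. Among the mural genes, Tagln was at 0 in aversive replicate 1 and in both appetitive libraries, where Kcnj8 and Anpep were also at 0 in replicate 2, and Anpep was at 0 in neutral replicate 1 as well. The sum of 8 fibroblast genes, a cell type that also uses Pdgfra, was 54.2 to 62.8 CPM in mock, 127 to 142 CPM in aversive, 3.67 to 7.02 CPM in appetitive and 104 to 129.7 CPM in neutral libraries. Members of the list differed, since Dcn, a matrix proteoglycan, was in the aversive libraries at 91.2 and 66.2 CPM against 9.0 to 22.1 CPM in mock, whereas Col1a1, a collagen chain, was at 0.3 and 1.96 CPM against 4.93 to 11.0 CPM. Of the 8, up to 1 was at 0 in a mock or aversive library, 2 and 4 in the appetitive libraries and 1 to 6 in the neutral libraries. In the neutral libraries Dcn was at 0, 0.15 and 0 CPM and Col1a1 at 0, 0.0809 and 0 CPM. Col1a2, another collagen chain, was at 10.1, 65.2 and 27.6 CPM there. In neutral replicate 1 only Col1a2 and Igf2 of the 8 had counts, so most of its sum was Igf2. The neutral sums thus do not reflect the 8 genes alike. The part of mural and fibroblast cells in the levels of Cspg4 and Pdgfra was not tested.

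**Figure D1:**
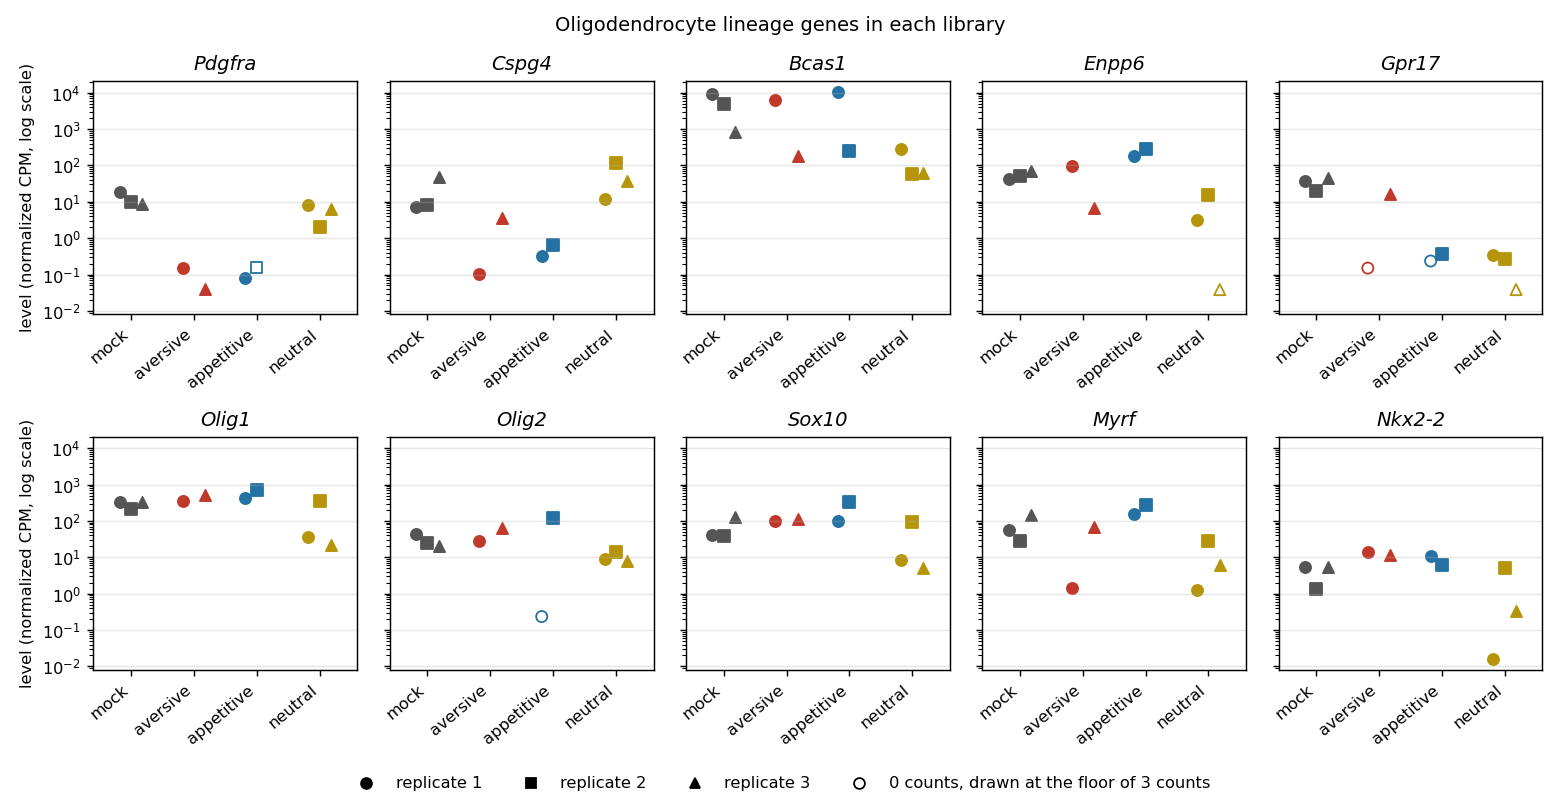
Level of each of the 10 lineage genes in each library (normalized CPM, log axis), by group, with the symbol giving the replicate and open symbols marking 0 counts drawn at the floor of 3 counts. Pdgfra and Cspg4 are lower in the 4 aversive and appetitive libraries than in the 6 mock and neutral ones, while Bcas1 spans 59.1 to 10700 CPM and is split within the mock, aversive and appetitive groups.

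Bcas1 (ENSMUSG00000013523, chr2:170346991-170427845, minus strand, GRCm38), a gene of early myelinating and mature oligodendrocytes, took most of the counts of the 10 genes in the libraries where it was high. It was at 9003, 5043 and 855 CPM in mock, 6395 and 179.8 CPM in aversive, 10700 and 243 CPM in appetitive, and 286, 59.1 and 62.9 CPM in neutral libraries. The highest and lowest libraries thus differed 181-fold, and mock, aversive and appetitive each held both high and low libraries. It made up 91.4% to 93.9% of the counts of the 10 genes in mock replicates 1 and 2, aversive replicate 1 and appetitive replicate 1, and 8.7% to 78.7% in the other 6. Neutral libraries were lower than all mock libraries, with a log2 difference of -5.19 ± 1.61 (SE) and adjusted p = 0.187 in edgeR. The differences of 4.59 ± 1.62 for aversive and 5.33 ± 1.67 for appetitive against neutral had adjusted p = 0.187 and 0.0739. Each rested on replicate 1, since the ranges overlapped through aversive replicate 3 and appetitive replicate 2. Without aversive replicate 1 the first difference was 0.45 (adjusted p = 0.928), and without appetitive replicate 1 the second was 0.76 (adjusted p = 0.809). Antisense transcripts of the locus share 474 bp, or 12.6%, of its exons, and counting without strand does not separate them.

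The same 4 libraries were the highest for Mbp, which encodes myelin basic protein, and for Mobp, another basic protein of myelin. Mbp stood at 264500 and 217400 CPM in mock replicates 1 and 2, at 322300 CPM in aversive replicate 1 and at 642700 CPM in appetitive replicate 1, and between 4847 and 23230 CPM in the other 6. Mobp was at 62770 to 125300 CPM in those 4 libraries and at 1327 to 9420 CPM in the rest. Of the 15 myelin genes, 13 had other highest libraries, among them Mag, an adhesion protein of the inner myelin layer, which was highest in appetitive replicate 2 at 3124 CPM. This comparison of highest libraries was made after the values were seen, and it carries no test.

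**Figure D2:**
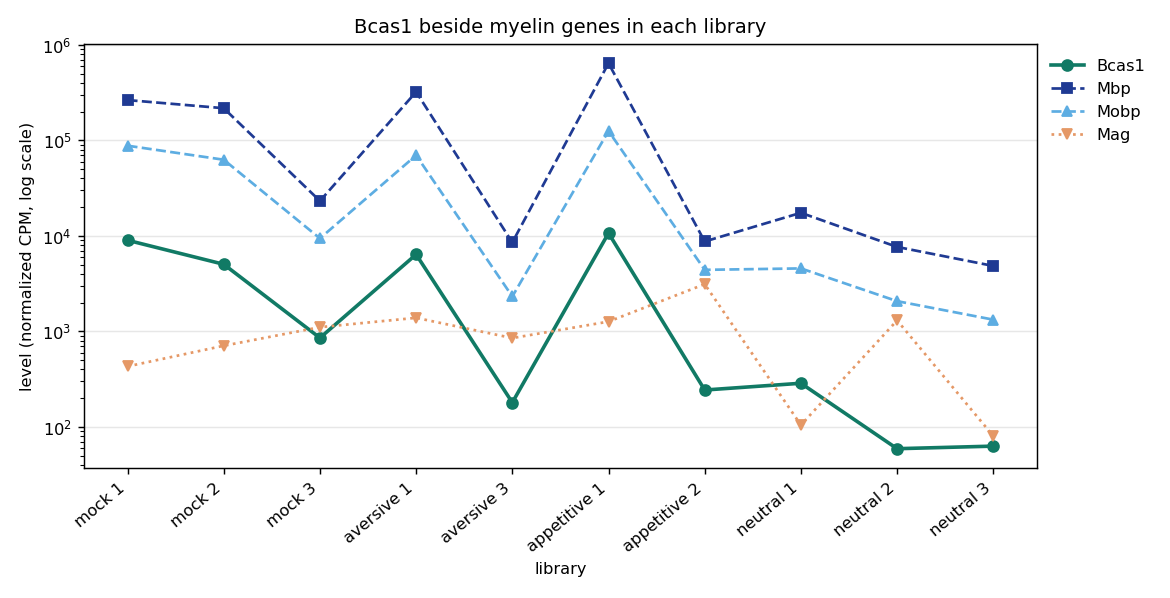
Bcas1 beside 3 myelin genes in the 10 libraries (normalized CPM, log axis), where lines only join the points of a gene and give no order. Bcas1, Mbp and Mobp are highest in mock 1, mock 2, aversive 1 and appetitive 1, whereas Mag is highest in appetitive 2.

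Enpp6 (ENSMUSG00000038173, chr8:46986887-47096762, GRCm38), a choline phosphodiesterase used as a marker of oligodendrocytes that have just differentiated, was highest in the appetitive group. It was at 185 and 287 CPM in appetitive, 41.2, 49.8 and 70.8 CPM in mock, 95.2 and 6.79 CPM in aversive, and 3.09, 15.6 and 0 CPM in neutral libraries. Both appetitive libraries lay above the 8 others, though by library size alone appetitive replicate 1 (88.6 CPM) fell below mock replicate 3 (103 CPM), and all neutral libraries lay below all mock libraries, while aversive replicate 1 was above the mock range and replicate 3 below it. The difference of appetitive from neutral was 5.24 ± 1.91 (SE) in log2 (adjusted p = 0.105 in edgeR), and that from mock was 2.13 ± 1.72 (adjusted p = 0.434). Its 250 upstream bases, at chr8:46986637-46986886 on the plus strand of GRCm38.p6, are shown because Enpp6, like Myrf, had both appetitive libraries above all others. They hold 1 SOX core, in capitals, and no E-box.
Enpp6: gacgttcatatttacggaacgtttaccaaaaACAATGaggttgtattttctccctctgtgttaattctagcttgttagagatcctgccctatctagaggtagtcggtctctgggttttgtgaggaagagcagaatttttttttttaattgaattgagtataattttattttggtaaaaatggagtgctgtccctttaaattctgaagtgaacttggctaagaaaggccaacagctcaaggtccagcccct
With a GC content of 38.4%, this window lay at the 9.05th percentile of the promoters, against the 56.5th for Pdgfra (54.4%) and the 73.0th for Cspg4 (60.4%).

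Gpr17 (ENSMUSG00000052229, on chromosome 18) encodes a receptor that is present only for a short time between the precursor and the myelinating cell. Its level was 38.3, 19.6 and 46.5 CPM in mock libraries and 0 and 16.2 CPM in aversive libraries. In appetitive it was 0 and 0.367 CPM, and in neutral it was 0.347, 0.266 and 0 CPM, from at most 23 counts in a library. All mock libraries lay above the 7 others, though by library size alone mock replicate 2 (18.4 CPM) fell below aversive replicate 3 (20.7 CPM). The aversive libraries were split, with no count in replicate 1 and 810 counts in replicate 3. The log2 difference was -7.4 ± 2.54 (SE) for neutral against mock (adjusted p = 0.221 in edgeR) and -7.5 ± 3.11 for appetitive against mock (adjusted p = 0.183), and DESeq2 called both, with adjusted p = 0.00853 and 0.0128. The fitted difference of 5.3 ± 2.37 for aversive against neutral came from aversive replicate 3 alone and turned to -6.18 without it. In the same way the difference of -5.4 ± 2.88 for appetitive against aversive turned to 6.08. Lims2 shares 188 bp, or 3.62%, of the exons of Gpr17 on the other strand.

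Olig1 (ENSMUSG00000046160, chr16:91269772-91271933, GRCm38), a basic helix-loop-helix factor of the whole lineage, varied least of the 5 transcription factors over the 7 libraries outside the neutral group. It stood at 335, 213 and 325 CPM in mock, 365 and 525 CPM in aversive, 428 and 703 CPM in appetitive, and 35.6, 345 and 22.5 CPM in neutral libraries. All 4 aversive and appetitive libraries were above the 6 others, with neutral replicate 2 just above the mock range and the other neutral libraries far below it. The same arrangement was seen in Nkx2-2 and in 1.1% of all genes tested, but in neither gene when library size alone was used for scaling. The log2 difference of appetitive from neutral was 2.07 ± 0.984 (SE), with adjusted p = 0.184 in edgeR. It was 0.96 ± 0.977 for appetitive and 0.61 ± 0.98 for aversive against mock (adjusted p = 0.538 and 0.87). A transcript on the other strand, Gm15966, shares 7.26% of its exon bases.

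Olig2 (ENSMUSG00000039830, chr16:91225457-91228677, GRCm38), the neighbor of Olig1 and the factor that specifies the lineage, followed another course in one appetitive library. It was at 43.8, 25.2 and 20.9 CPM in mock, 29.0 and 62.6 CPM in aversive, 0 and 122 CPM in appetitive, and 9.28, 14.1 and 7.8 CPM in neutral libraries. Appetitive replicate 1 had no Olig2 count although it held 5469 counts of Olig1, while replicate 2 was the highest library. The neutral libraries lay below all mock and aversive libraries. For appetitive against neutral the log2 difference was 2.56 ± 1.74 (SE, adjusted p = 0.328 in edgeR), and its sign depended on the library. Without replicate 1 it was 3.46 ± 0.835 (adjusted p = 0.048), and without replicate 2 appetitive was below neutral, aversive and mock (adjusted p = 0.0174, 0.0161 and 0.0199), with the lone library at 0 counts assumed to vary like the other groups.

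Sox10 (ENSMUSG00000033006, chr15:79154908-79165240, minus strand, GRCm38), which drives both the precursor state and the myelin genes, was at 41.7, 38.4 and 125 CPM in mock, 100.0 and 114 CPM in aversive, 97.4 and 328 CPM in appetitive, and 8.31, 93.7 and 4.98 CPM in neutral libraries. Aversive and appetitive libraries all exceeded the neutral ones, but not by library size alone, and neutral replicate 2 came close to appetitive replicate 1, and mock replicate 3 lay among the aversive and appetitive values. The log2 difference of appetitive from neutral was 2.58 ± 1.19 (SE, adjusted p = 0.175 in edgeR) and that of aversive was 1.59 ± 1.17 (adjusted p = 0.479).

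Myrf (ENSMUSG00000036098, chr19:10208272-10240748, minus strand, GRCm38), the factor needed to begin myelination, was highest in the appetitive group like Enpp6. Its values were 57.7, 28.6 and 145 CPM in mock, 1.4 and 67.2 CPM in aversive, 152 and 269.9 CPM in appetitive, and 1.26, 28.6 and 6.14 CPM in neutral libraries. Both appetitive libraries were above the 8 others, but by library size alone appetitive replicate 1 (72.9 CPM) was below mock replicate 3 (211 CPM), which came close to them under the main scaling too, and aversive replicate 1 was close to the lowest neutral library. Appetitive differed from neutral by 4.14 ± 1.52 (SE) in log2 (adjusted p = 0.107 in edgeR and 0.0179 in DESeq2), from aversive by 2.62 ± 1.67 (adjusted p = 0.421 in edgeR) and from mock by 1.45 ± 1.42 (adjusted p = 0.52).

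Nkx2-2 (ENSMUSG00000027434, chr2:147177546-147194243, minus strand, GRCm38), a homeobox factor that acts as precursors begin to differentiate, was at 5.34, 1.35 and 5.58 CPM in mock, 14.0 and 11.2 CPM in aversive, 10.9 and 6.02 CPM in appetitive, and 0.0158, 5.08 and 0.334 CPM in neutral libraries. Aversive was the highest group and did not overlap with the others, but it overlapped with appetitive by the size factors of DESeq2. Under the main scaling that gap was small, between 11.2 CPM in aversive replicate 3 and 10.9 CPM in appetitive replicate 1. Appetitive replicate 2 was just above the highest mock library (and below it by library size alone), and 1 count was found in neutral replicate 1. None of its differences came near the threshold, with 2.8 ± 1.84 (SE) in log2 for aversive against neutral (adjusted p = 0.423 in edgeR). The bases upstream of its RefSeq start are shown, at chr2:147186456-147186652 on the minus strand of GRCm38.p6. They are 197 of 250 bases, with those in GENCODE exons of the gene left out. This window lies inside the GENCODE span of the gene given above, so it is upstream of that RefSeq start only. It was chosen because it held 3 E-boxes, the most among the windows at hand, and no SOX core.
Nkx2-2: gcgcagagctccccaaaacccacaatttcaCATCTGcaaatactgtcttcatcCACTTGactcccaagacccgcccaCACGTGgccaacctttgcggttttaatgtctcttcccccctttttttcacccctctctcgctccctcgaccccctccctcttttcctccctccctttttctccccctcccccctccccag
An antisense transcript, Nkx2-2os, shares 9.67% of its exon bases.

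Per kilobase of exon, which allows genes to be compared within a library, Bcas1 or Olig1 was the highest of the 10 in every library. Bcas1 led in mock, in aversive replicate 1, in appetitive replicate 1 and in neutral replicates 1 and 3, and Olig1 led in aversive replicate 3, appetitive replicate 2 and neutral replicate 2. The lowest gene was Cspg4, Nkx2-2 or Pdgfra in mock and Gpr17, Olig2, Enpp6, Nkx2-2 or Pdgfra in the other groups. The 5 transcription factors summed to 125 to 218 CPM per kb in mock, 218 and 317 in aversive, 251 and 515 in appetitive, and 23.0, 201 and 16.0 in neutral libraries. The 3 markers of newly formed oligodendrocytes ranged more widely, from 16.7 CPM per kb in neutral replicate 3 to 2863 in appetitive replicate 1. This range was that of Bcas1, which alone gave 16.7 and 2834 CPM per kb in these libraries. The precursor markers summed to 1.71 to 4.82 CPM per kb in mock and 1.77 to 9.91 in neutral, but to 0.0234 and 0.3 in aversive and 0.034 and 0.0527 in appetitive libraries. As a share of the summed level of the 9 genes other than Bcas1, a quantity that scaling does not touch, they held 1.17% to 1.98% in mock and 4.64% to 18.9% in neutral libraries, and 0.00941% to 0.0933% in aversive and appetitive libraries. With Bcas1 counted in, they held 0.0953% to 1.03% in mock and 1.74% to 10.2% in neutral libraries. In aversive and appetitive libraries that share was 0.00109% to 0.0812%. By both shares every aversive and appetitive library was below every mock and neutral library. With Bcas1 counted in, however, mock replicate 1 (0.0953%) lay close to aversive replicate 3 (0.0812%). Both shares rest on the same counts of Pdgfra and Cspg4 and are not an independent observation.

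**Figure D3:**
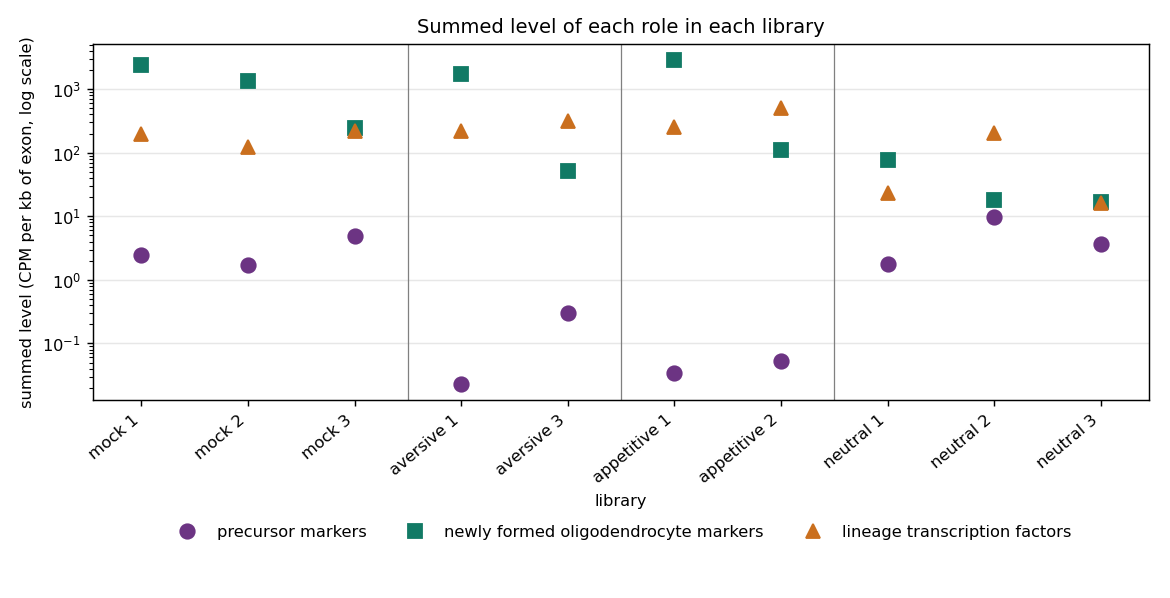
Summed level per kilobase of exon (normalized CPM per kb, log axis) of the precursor markers, the newly formed oligodendrocyte markers and the lineage transcription factors in each library, with vertical lines between groups. The precursor markers sit at 0.0234 to 0.3 in the aversive and appetitive libraries and at 1.71 to 9.91 in the mock and neutral ones, while the transcription factors stay at 125 or more except in neutral 1 and neutral 3.

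In its RNA-seq the study compared cells tagged by an experience with valence with cells tagged without it, with the neutral group as the reference. It also compared appetitive with aversive cells directly. None of the 10 genes was called in aversive against neutral by edgeR at an adjusted p under 0.05, where 0.0405% of the genes tested were called. At an unadjusted p under 0.05 there were 4 (Pdgfra and Cspg4 lower, Bcas1 and Gpr17 higher, against 19.1% of all genes), and DESeq2 called 3 of the 7 to which it gave an adjusted p (Pdgfra, Cspg4 and Bcas1, against 15.7%). The libraries of the groups did not overlap for 6 of the 10, with Pdgfra and Cspg4 lower and Olig1, Olig2, Sox10 and Nkx2-2 higher, against 33.7% of all genes, and for 4 by library size alone, without Olig1 and Sox10. Their median log2 difference was 1.93, beside -0.15 for all genes tested.

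For appetitive against neutral, edgeR called none of the 10, where 6.17% of the genes tested were called, and 5 had an unadjusted p under 0.05 (29.3% of all genes). DESeq2 called Pdgfra, Cspg4, Bcas1 and Myrf, against 28.0% of all genes. The libraries did not overlap for 7 (38.6% of all genes), Pdgfra and Cspg4 on the lower side and Enpp6, Olig1, Sox10, Myrf and Nkx2-2 on the higher side, and 4 by library size alone, without Olig1, Sox10 and Nkx2-2. The median was 2.39 beside -0.91 for all genes. Both comparisons share the neutral libraries, so the alikeness of their values is not an independent observation. Counted by role, all 5 transcription factors were above neutral in both comparisons, by 1.52 to 2.8 in aversive and by 2.07 to 4.14 in appetitive, without any of them passing the test.

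The direct comparison of appetitive with aversive found none of the 10 at an adjusted p under 0.05 in edgeR (1.8% of all genes), none at an unadjusted p under 0.05, which 3941 of the 19754 genes had, and none in DESeq2 (24.0%). Separate ranges were seen in 3, with Enpp6 and Myrf higher and Nkx2-2 lower in appetitive (28.4% of all genes), of which Enpp6 alone was separate under all 3 scalings. The smallest adjusted p was 0.318, for Gpr17. The standard errors of 1.09 to 2.88 in log2 leave differences of several-fold undetectable at this spread, and the values do not show that the 2 experiences gave the same levels.

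Against mock, with the same kit and sequencer, edgeR called none of the 10 in aversive, where 0.0% of all genes were called, and 1, Pdgfra, had an unadjusted p under 0.05 (0.0065, against 9.96% of all genes). DESeq2 called Pdgfra (7.95% of all genes), also at an adjusted p under 1e-05 with over 4-fold (1.3%). Ranges were separate for 5 genes (36.1% of all genes), with Pdgfra, Cspg4 and Gpr17 lower and Olig1 and Nkx2-2 higher, and for 3 by library size alone, without Gpr17 and Olig1. In appetitive, edgeR again called none (1.98% of all genes), 3 had an unadjusted p under 0.05 (Pdgfra, Cspg4 and Gpr17, against 23.8%), and DESeq2 called the same 3 (25.7%). Ranges were separate for 7 (48.7% of all genes), with those 3 lower and Enpp6, Olig1, Myrf and Nkx2-2 higher, and for those 3 alone by library size. Without the neutral libraries, in a fit of the 7 libraries of the same kit, the log2 difference of Pdgfra was -6.94 for aversive and -8.25 for appetitive against mock (adjusted p = 0.316 and 0.125), close to -7.05 and -8.34 with them.

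Neutral against mock gave 0 calls among the 10 in edgeR (0.0861% of all genes), 2 at an unadjusted p under 0.05 (Bcas1 and Gpr17, both lower, against 13.5%) and the same 2 in DESeq2 (7.64%). All but Cspg4 were lower in neutral, and 6 did not overlap with mock (Pdgfra, Bcas1, Enpp6, Gpr17, Olig2 and Myrf, against 32.0% of all genes), of which Pdgfra overlapped by the size factors of DESeq2 and Myrf by library size alone. The median was -1.36 beside 0.08 for all genes. Glial genes outside the lineage were low in the same libraries, since 10 astrocyte genes summed to 183 to 386 CPM in neutral and to 3920 to 16340 CPM in the other libraries, and 10 microglia genes to 45.1 to 428 CPM against 1082 to 10370 CPM. Genes of choroid plexus and ependyma, the cells that line the ventricles, went the other way, since the 8 summed to 21380 to 130500 CPM in neutral, 7272 to 13760 CPM in aversive, 1156 to 3594 CPM in mock and 849 to 2999 CPM in appetitive libraries. All 8 were higher in neutral than in mock in the fitted difference, and none was at 0 in a neutral library. None of the 8 passed edgeR's test, while DESeq2 called 2. Of the 10 astrocyte genes, edgeR called 3 and DESeq2 called 9, all lower in neutral than in mock. Of the 10 microglia genes, edgeR called 0 and DESeq2 called 7, all lower. The part of the kit and of these glial, choroid plexus and ependymal cells in the neutral levels was not tested.

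**Figure D4:**
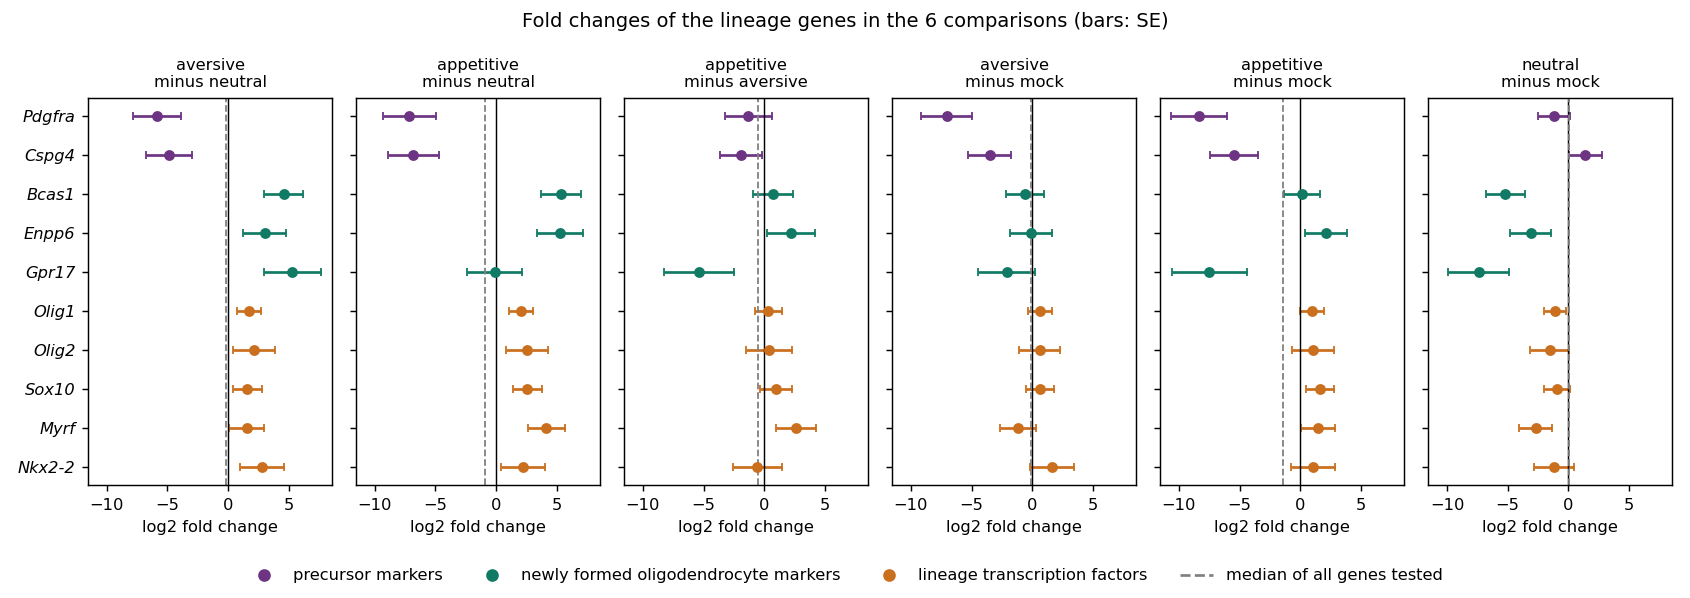
Log2 fold change (points) with its SE (bars) of the 10 lineage genes in the 6 comparisons from edgeR, colored by role, with a dashed line at the median of all genes tested. Pdgfra and Cspg4 are negative in all 4 comparisons of aversive or appetitive with neutral or mock, and the 5 transcription factors are positive against neutral. No gene passed an adjusted p of 0.05.

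Other genes of the lineage were followed in 4 lists of 77 genes in all, which were all tested. In appetitive against neutral, 9 were higher (0.937% of all genes) and 1 lower (5.23%) at an adjusted p under 0.05 in edgeR. These calls depended on the fit, since 0 of the 77 and 0 of 16100 genes in all were called when the 2 groups were fitted alone. Without neutral replicate 3 there were 0, without neutral replicate 1 there were 2, without appetitive replicate 1 there were 5, by library size alone there were 6 (3 higher and 3 lower), and with a block for the replicate number there was 1, whereas DESeq2 called 26. In the other 5 comparisons edgeR called none, while 5 to 21 of the 77 had an unadjusted p under 0.05 and DESeq2 called 5 to 19. By list, 1 of 18 other precursor genes, 3 of 16 other genes of newly formed oligodendrocytes, 2 of 19 other transcription factors and 3 of 24 growth factors and receptors rose, and 1 transcription factor fell. The median log2 difference of the 77 was 0.08 beside -0.91 for all genes in this comparison.

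Ptprz1, a receptor phosphatase of precursors that astrocytes also make, rose from 7.49 ± 3.39 CPM in neutral (SD, n = 3) to 184 ± 102 CPM in appetitive libraries (n = 2), by 4.62 ± 0.844 (SE) in log2 with edgeR's Benjamini-Hochberg adjusted p = 0.0186. It stood at 152 and 413 CPM in the aversive and at 131 to 512 CPM in the mock libraries, so only the neutral libraries were apart. Zeb2, a repressor needed for differentiation that microglia also use, was higher in appetitive by 3.61 ± 0.76 (adjusted p = 0.0265), at 365 ± 102 against 29.9 ± 22.6 CPM in neutral. It stood at 188.5 and 156.8 CPM in aversive and at 125 to 259 CPM in mock libraries. Ugt8a, the enzyme of galactolipid synthesis for myelin, was higher by 3.81 ± 0.851 (adjusted p = 0.0317), at 780.0 ± 150.0 against 55.6 ± 57.8 CPM. It stood at 317.5 and 272.9 CPM in aversive and at 185 to 449 CPM in mock libraries. For both genes every neutral library was below all other libraries. Prox1, a homeobox factor also known from granule neurons of the dentate gyrus, had 872 and 6028 counts in appetitive against 3, 4 and 0 in neutral libraries (adjusted p = 0.0313), and none in aversive replicate 1 against 5387 in replicate 3. Sox4, a factor that holds back differentiation and is used by many immature cells, was the gene that fell, with 1 count in each appetitive library against 2322 to 3343 in the neutral ones (adjusted p = 0.031). The pooled rate of Sox4 in neutral was 581 times that in appetitive (95% exact interval 161 to 4800, counting error only). For these 5 genes the adjusted p was 0.0951 to 0.101 with the 2 groups fitted alone and 0.0694 to 0.0958 without neutral replicate 3, so none of the 5 passed in either fit. Astrocyte genes were likewise lower in neutral than in appetitive libraries, where they summed to 3920 to 5520 CPM, and their part in these differences was not tested.

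Detection of the other precursor genes followed the members Pdgfra and Cspg4 only in part. Of the 18, 15 to 18 had over 3 counts in a mock library and 11 to 13 in a neutral library. In aversive replicate 1 there were 7 and in the appetitive libraries 5 and 7, but aversive replicate 3 had 17, and after scaling all libraries to the smallest total these were 6, 5, 7 and 16. Over all genes tested, 82.8% to 97.9% had over 3 counts in mock, 76.7% to 82.5% in neutral, 60.4% and 77.4% in aversive, and 43.4% and 51.1% in appetitive libraries, so that the libraries with few precursor genes also had few genes of any kind. In the appetitive libraries 87.5% and 81.2% of the other genes of newly formed oligodendrocytes were found, and 27.8% and 38.9% of the other precursor genes. By level, 9 of these 18 were higher and 9 lower in aversive than in neutral (median log2 difference 0.22, beside -0.15 for all genes). The split was the same for appetitive against neutral (median -1.25, beside -0.91). Against mock, 6 were higher and 12 lower in aversive, and 1 was higher and 17 lower in appetitive. Vcan and Lhfpl3 had no count in any neutral library, where Pdgfra and Cspg4 were found. The 2 members thus do not stand for all precursor genes.

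**Figure D5:**
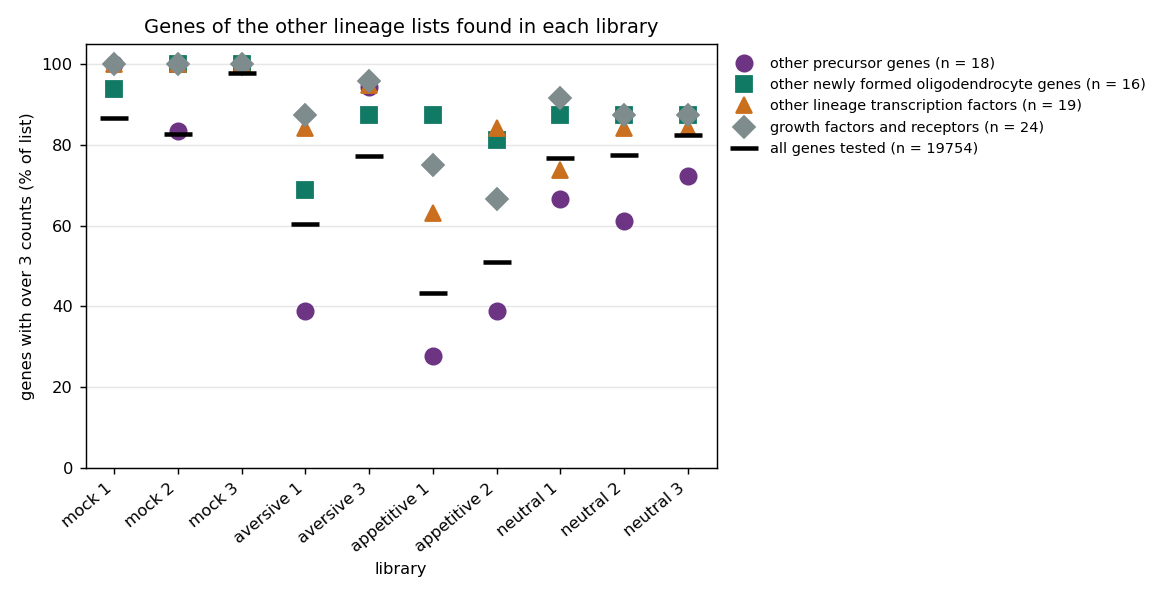
Share of the genes of each other lineage list with over 3 counts in each library (percent), with black bars for all genes tested. The other precursor genes lie at 27.8% to 38.9% in aversive 1 and both appetitive libraries, under the bar of all genes, and at 94.4% in aversive 3.

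The mean profile of the 10 genes, taken as the mean of their standardized log2(CPM + 1) values, was lowest in neutral replicates 3 and 1 (-0.92 and -0.81) and highest in mock replicate 3 (0.61). Among the members, Olig1 followed it most closely, with Pearson's r of 0.852 over the 10 libraries, while Pdgfra and Cspg4 did not follow it (r of -0.026 and -0.154). The 5 other genes most like it were Scd2, a fatty acid desaturase of myelinating cells (r of 0.946), Epb41l2 (0.944), the small GTPase Rhoa (0.934), Itih3 (0.932) and the glutamate receptor Grm3 (0.93). These are descriptions over 10 libraries, of which the 3 neutral ones share a preparation of their own and the 7 others another, and 2 of the 5 genes, Scd2 and Epb41l2, were also among the closest when library size alone was used for scaling.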

How the data were processed

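The authors sorted EYFP-tagged material, made 10 RNA-seq libraries, mapped the first 40 bp of the reads to mm10 with STAR, counted reads per Ensembl gene (GRCm38) with featureCounts from Subread without regard to strand, and deposited the raw counts of 53379 genes per library. Tool versions are not given in the sources used here. Reads of overlapping antisense genes are included in a gene's count, and amplified copies were not removed, so intervals and floors cover counting error only. Groups and replicate numbers came from the labels.

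The tests used edgeR 4.0.16 in R 4.3.3, with TMM normalization, filterByExpr and 1 quasi-likelihood model of 4 groups over 10 libraries (common dispersion 1.491). They were two-sided, with Benjamini-Hochberg adjustment over 19754 genes and calls at 0.05, and SEs came from the F statistics. DESeq2 1.42.0 was the alternative test, and its adjusted p was missing for Enpp6, Sox10 and Nkx2-2. Positions and exons were those of GENCODE M21 (GRCm38), to which 53274 identifiers matched, and upstream sequences those of RefSeq (GRCm38.p6), which held 5 of the 10 genes. Other settings were 2 further scalings, no filter, a filter of 10 counts in 5 libraries, the compared groups alone, the 7 libraries without neutral, the replicate number as a block, and each library left out. The steps were tested on simulated counts.

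The 10 genes and all lists were chosen with earlier results of these data known. All 10 were named, as were, of the 77 other lineage genes, up to 4 called with the smallest p per direction and comparison, and the 5 genes with the highest Pearson's r to the mean profile of the 10.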

Additional observations from a re-analysis of the deposited data

How the results depend on the processing

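No call of edgeR among the 10 genes depended on TMM against the size factors of DESeq2 or library size alone, on a filter of 10 counts in 5 libraries, or on leaving out the neutral libraries where they were not compared, since each of these gave 0 calls. DESeq2's Wald test called 3 genes in aversive against neutral, 4 in appetitive against neutral, 1 in aversive against mock (also 1 at the study's stricter threshold), 3 in appetitive against mock and 2 in neutral against mock. With no filter edgeR called 1 in aversive against neutral (Bcas1), where 863 of 35266 genes in all were called. It called 4 in appetitive against neutral (Cspg4, Bcas1, Enpp6 and Myrf, among 2535 of 35266 genes). In neutral against mock it called 2 (Bcas1 and Gpr17, among 520 of 35266 genes). Fitted to the compared groups alone it called 2 (Pdgfra and Gpr17) in appetitive against mock, where 3585 of 16471 genes were called. The cause was not tested. Leaving out neutral replicate 2 gave 2 calls in appetitive against neutral (Olig1 and Sox10), where 777 of 18854 genes in all were called. It gave 0 in the other comparisons, and leaving out any other neutral library or any mock library gave 0 calls. Without an aversive or appetitive library 1 library is left in that group, so calls among the 10 from those fits are not counted here. The log2 difference of Gpr17 ran from -6.18 to 6.33 in aversive against neutral and from -11.59 to 6.08 in appetitive against aversive, with the sign set by aversive replicate 3.

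By library size alone, an alternative chosen after seeing the data, the genes without overlap were 4 in appetitive against neutral, 3 in aversive against mock (Pdgfra, Cspg4 and Nkx2-2), 3 in appetitive against mock (Pdgfra, Cspg4 and Gpr17) and 0 for the 4 libraries above the 6 others. Of the 5 genes most like the members, 2 were shared under that scaling. With the replicate block, 0 of the 10 were called in all 6 comparisons. The numbers were not taken to pair the libraries, as deviations of same-numbered libraries correlated from -0.038 to 0.168, and the block left 73 calls among all genes in appetitive against neutral, from 1218, and 0 in the other comparisons. Over the settings 21 fold changes of members were followed, which were those with the smallest unadjusted p in the main fit of edgeR. The weaker differences of members were not followed, so the tally does not cover them. Among the refits of the 21, 234 kept their direction and side of the threshold, 25 passed it and 2 turned. Olig2 was not among those followed, and it turned as well. Without appetitive replicate 2 its log2 difference was -11.92 for appetitive against neutral, -14.1 against aversive and -13.58 against mock. With that library it was above 0 in each. Among the 77 other lineage genes, alternatives chosen after seeing the data gave DESeq2 calls of 17, 26, 16, 5, 19 and 14 in aversive against neutral, appetitive against neutral, appetitive against aversive, aversive against mock, appetitive against mock and neutral against mock, where edgeR called 0, 10, 0, 0, 0 and 0. With no filter edgeR called 13, 21, 6, 0, 3 and 10, where 863, 2535, 1270, 10, 1124 and 520 of all 35266 genes were called. By library size alone it called 6 in appetitive against neutral and 1 each in appetitive against aversive and against mock, and with the filter of 10 counts in 5 libraries 15, 1 and 1. Fitted to the compared groups alone it called 0 in appetitive against neutral and 13 in appetitive against mock, where 3585 of 16471 genes were called. With the replicate block it called 1 in appetitive against neutral. Leaving out 1 library gave 0 (neutral replicate 3) to 11 (appetitive replicate 2) calls in appetitive against neutral, where 1218 genes of all fell to 67 without neutral replicate 3, and 2 to 4 in appetitive against aversive, 0 to 1 in appetitive against mock and 0 in the others. With 2 libraries in the aversive and appetitive groups, differences of several-fold could miss the threshold, and Pdgfra there rests on 5 and 1 pooled counts.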
